A study of Mus musculus with 12 samples.

Results

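The 9 genes described here are outputs and rhythmic regulators of the circadian clock: Dbp, Tef, Hlf, Nfil3, Ciart, Bhlhe40, Bhlhe41, Noct and Rora. They were taken by name, from a fixed list, out of 24532 gene identifiers measured in mouse kidney. The list was chosen with earlier results of these data known. All 9 passed the filter on low values, as did 14488 genes in all. Total RNA was sequenced from kidneys of fasted mice in 12 libraries, 3 in each of 4 groups. FXR KO GW4064 mice (strain label Nr1h4tm1Gonz/J) received GW4064, a synthetic agonist of the bile acid receptor FXR, for 6 h. FXR KO vehicle mice carried the same allele and received vehicle. WT GW4064 mice (C57BL/6) received the agonist for 6 h, and WT vehicle mice (C57BL/6) received vehicle. Mice were fasted overnight, per the series description. The Nr1h4 allele is a disruption in the whole animal, so no kidney cell type was targeted, and the genotypes carry different strain labels, so that genotype and strain background cannot be told apart. Separate mice are not stated for libraries of 1 group, so p-values measure the spread between libraries only. The labels give no age, no sex and no hour of the day at which kidneys were taken.

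In the core loop of the clock, ARNTL with CLOCK or NPAS2 activates genes through E-boxes, and the products of the Per and Cry genes repress that activation. REV-ERB proteins (Nr1d1, Nr1d2) repress and ROR proteins (RORA among them) activate Arntl and other genes through a shared response element. Dbp, Tef and Hlf encode the PAR bZIP transcription factors, which carry the rhythm to output genes through D-boxes, and NFIL3 represses through the same element. In mouse kidney the PAR bZIP factors are known as rhythmic regulators of genes for transport and for the handling of foreign compounds.

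Promoters of Ciart, Tef and Nfil3, genes that differed between genotypes and held a match to an E-box or a ROR half-site, are shown for those elements. RefSeq promoters of GRCm38.p6 (250 bases before to 50 after the transcript start) were matched for 8 of the 9 genes and gave 9 promoters, 2 of them for Tef. Capitals mark an E-box (CACGTG) in Ciart and Tef, and in Nfil3 the ROR half-site AGGTCA, which reads TGACCT on the strand printed.
Ciart, chr3:95882179-95882478 (minus strand): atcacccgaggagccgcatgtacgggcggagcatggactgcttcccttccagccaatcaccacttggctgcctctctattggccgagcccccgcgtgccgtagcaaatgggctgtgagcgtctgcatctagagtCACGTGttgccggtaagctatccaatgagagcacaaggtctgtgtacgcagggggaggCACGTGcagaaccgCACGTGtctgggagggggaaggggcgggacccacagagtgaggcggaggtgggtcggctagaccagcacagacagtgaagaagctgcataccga
Tef, first promoter, chr15:81802423-81802722 (plus strand): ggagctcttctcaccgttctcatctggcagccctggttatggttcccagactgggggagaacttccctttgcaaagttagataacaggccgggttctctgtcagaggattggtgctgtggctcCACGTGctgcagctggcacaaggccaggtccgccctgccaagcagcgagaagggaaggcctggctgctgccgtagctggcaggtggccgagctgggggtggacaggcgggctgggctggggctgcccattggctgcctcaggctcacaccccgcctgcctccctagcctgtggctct
Tef, second promoter, chr15:81811164-81811463 (plus strand): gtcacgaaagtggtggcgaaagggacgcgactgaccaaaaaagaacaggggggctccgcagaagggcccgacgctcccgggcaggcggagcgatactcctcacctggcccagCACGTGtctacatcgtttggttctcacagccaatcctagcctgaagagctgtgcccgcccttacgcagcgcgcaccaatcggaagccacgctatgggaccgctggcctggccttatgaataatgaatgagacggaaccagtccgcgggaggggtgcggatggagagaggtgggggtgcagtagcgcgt
Nfil3, chr13:52980990-52981289 (minus strand): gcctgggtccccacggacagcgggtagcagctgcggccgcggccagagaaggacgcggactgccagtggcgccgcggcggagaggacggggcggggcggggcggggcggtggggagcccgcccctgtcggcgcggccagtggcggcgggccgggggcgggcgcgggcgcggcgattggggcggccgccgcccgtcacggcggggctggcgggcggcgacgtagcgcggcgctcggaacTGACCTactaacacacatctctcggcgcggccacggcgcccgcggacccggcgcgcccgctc
The Ciart promoter held 3 E-boxes, whose first bases lay 116, 58 and 44 bases before the start. Each Tef promoter held 1, at 127 and 138 bases before its start, and Bhlhe41 held 1 at 153 bases. Searched on both strands, an E-box was present in 7.15% of 32851 promoters of the same length. The half-site in Nfil3 lay 12 bases before the start, and 16.3% of promoters held one. Hlf held a CRE (TGACGTCA, in 1.79% of promoters) 9 bases before its start. The D-box TTATGTAA (0.938% of promoters) and inverted repeat 1, the element FXR is known to bind (AGGTCA, any base, then the reverse complement TGACCT; 0.00913% of promoters), had no match in the 9 promoters. None of the 5 motifs matched in the windows of Dbp, Noct and Rora.

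On vehicle, 5 of the 9 genes differed between genotypes: Dbp, Tef, Hlf and Ciart were lower in FXR KO kidneys and Nfil3 was higher. The call was an adjusted p under 0.05 in limma, fitted to log2(TPM + 0.5) of all genes with Benjamini-Hochberg adjustment, and 12.9% of the 14488 genes met it (3.19% higher and 9.73% lower). Under GW4064 the call was met by 4 of the 9 (Dbp, Tef and Ciart lower, Nfil3 higher), against 18.5% of all genes (7.08% higher and 11.4% lower). The groups did not overlap for 6 of the 9 genes on vehicle and for 5 under GW4064, against 34.7% and 36.7% of all genes. The median log2 change of the 9 was -0.61 on vehicle, against -0.09 over all genes, and 0.10 under GW4064, against -0.03. In whole-kidney RNA, fewer cells of a type and less RNA per cell cannot be told apart.

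**Figure D1:**
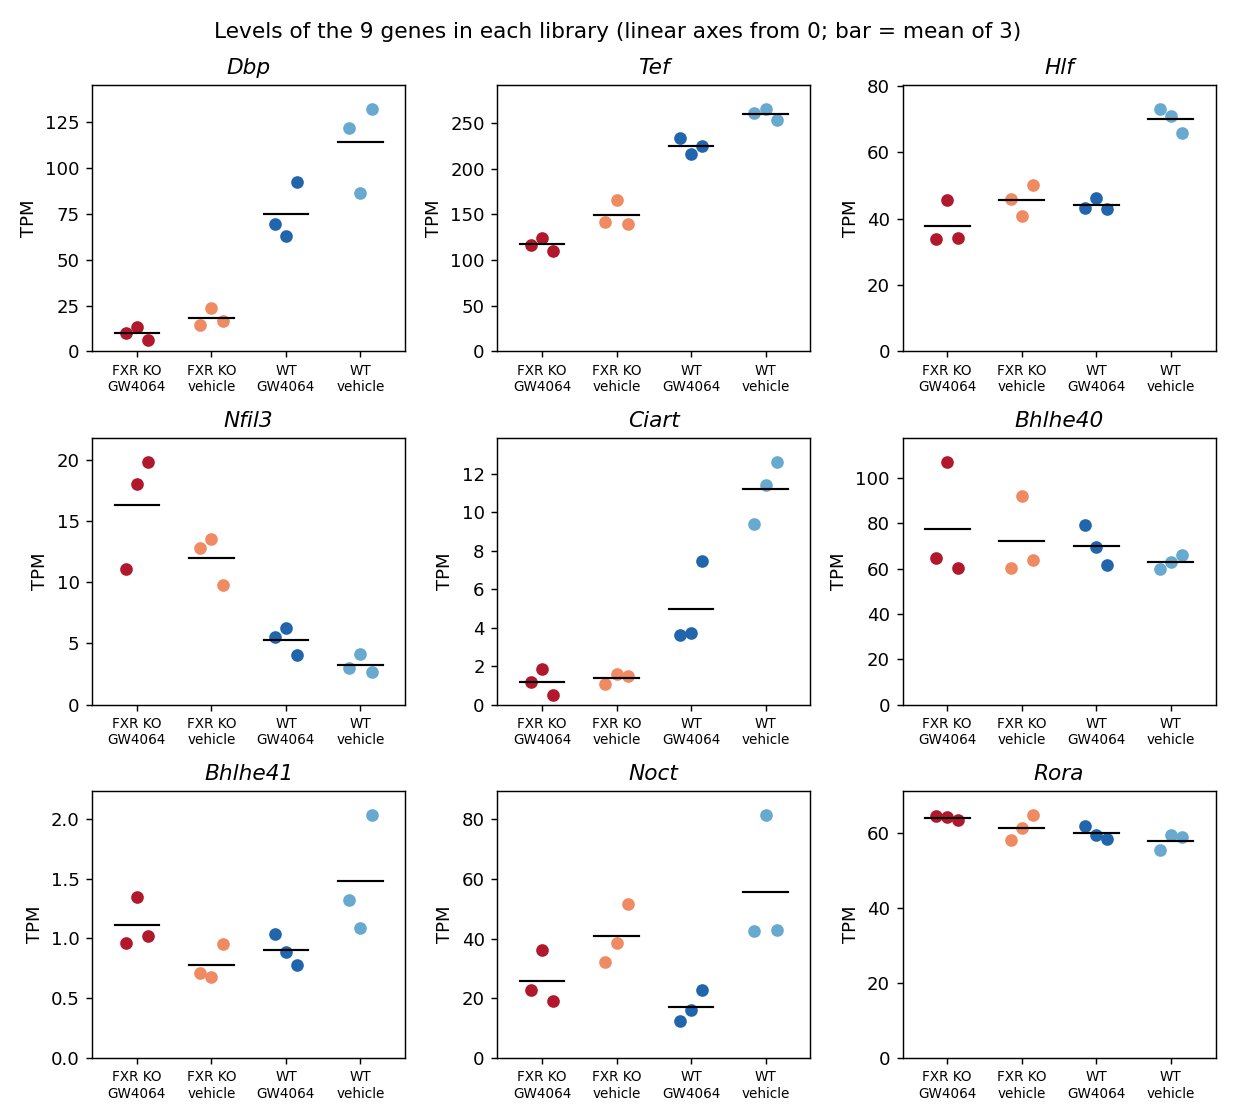
Level of each of the 9 genes in TPM (transcripts scaled to the same total in each library, linear axis from 0) in each of the 12 libraries; points are libraries and bars are means of 3. Dbp, Tef and Ciart lie lower in all 6 FXR KO libraries than in any WT library, and Nfil3 lies higher.

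Among the PAR bZIP genes, Dbp (Entrez 13170, chr7:45705247-45710203, plus strand, mm10) is the one whose transcript is best known for its high daily amplitude. It was at 14.5, 23.8 and 16.4 TPM in FXR KO vehicle libraries, against 122, 86.5 and 132 TPM in WT vehicle libraries. Every knockout library was below every wild-type library. The log2 change was -2.62 ± 0.26 (SE; limma, adjusted p = 1.7e-04), 6.24-fold lower as a ratio of mean TPM, and was the 9th lowest of 14488 genes. Under GW4064, Dbp was at 10.004, 13.3 and 6.38 TPM in FXR KO libraries, against 69.4, 62.9 and 92.1 TPM in WT libraries, again without overlap. That difference was -2.89 ± 0.26 on the log2 scale (limma, adjusted p = 2.0e-05) and 7.55-fold lower in FXR KO.

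Tef (Entrez 21685, chr15:81802673-81826863, plus strand) encodes the thyrotroph embryonic factor and was the most abundant of the 3 in TPM. It was at 142, 166 and 139 TPM in FXR KO vehicle libraries, against 261, 265 and 253 TPM in WT vehicle libraries. The groups were far apart for their spread, and the log2 change was -0.80 ± 0.07 (limma, adjusted p = 4.0e-05), a ratio of 0.573. Under GW4064 it was at 116, 124 and 110 TPM in FXR KO, against 234, 216 and 225 TPM in WT, with no overlap. The log2 change was -0.95 ± 0.07 (limma, adjusted p = 3.8e-06). Tef was the only one of the 9 genes for which the groups could be put in an order in which no neighbours overlapped: FXR KO GW4064, FXR KO vehicle, WT GW4064 and WT vehicle, low to high.

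Hlf (Entrez 217082, chr11:90336535-90390917, minus strand) encodes the hepatic leukemia factor. It was at 45.9, 40.9 and 50.2 TPM in FXR KO vehicle libraries, against 72.9, 70.8 and 65.6 TPM in WT vehicle libraries. There was no overlap, and the log2 change was -0.61 ± 0.11 (limma, adjusted p = 0.005). Under GW4064 the levels overlapped, with 33.9, 45.6 and 34.0 TPM in FXR KO and 43.1, 46.3 and 42.8 TPM in WT. That log2 change was -0.23 (95% interval -0.47 to 0.01; limma, adjusted p = 0.167), and without FXR KO GW4064 replicate 2, the highest of its group, it was -0.37 (adjusted p = 0.0115). In the order of the 4 groups, the WT vehicle libraries alone stood apart for Hlf.

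Nfil3 (Entrez 18030, chr13:52967209-52981039, minus strand), the D-box repressor, went the other way. It was at 12.8, 13.5 and 9.76 TPM in FXR KO vehicle libraries, against 2.98, 4.15 and 2.69 TPM in WT vehicle libraries. All knockout libraries were above all wild-type ones, the log2 change was 1.74 ± 0.23 (limma, adjusted p = 8.9e-04), and the ratio of means was 3.68. Under GW4064 it was at 11.1, 18.0 and 19.8 TPM in FXR KO, against 5.49, 6.25 and 4.08 TPM in WT. This difference, also without overlap, was 1.52 ± 0.23 on the log2 scale (limma, adjusted p = 7.5e-04), 3.09-fold higher in FXR KO. In rank among 14488 genes, Nfil3 was the 23rd highest on vehicle and the 60th highest under GW4064.

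The sum of the PAR bZIP transcripts and the level of their competitor are given together for description, without a test. The sum averaged 213 ± 15.1 TPM in FXR KO vehicle and 443 ± 17.8 TPM in WT vehicle libraries (SD, n = 3 each). Under GW4064 it was 164 ± 16.9 TPM in FXR KO and 344 ± 17.6 TPM in WT. The makeup of the sum also differed: the share of Dbp was 8.48% ± 1.63 in FXR KO vehicle and 25.5% ± 4.53 in WT vehicle libraries, while that of Tef was 69.9% and 58.7%. The sum divided by the TPM of Nfil3 was 15.8, 17.0 and 21.1 in FXR KO vehicle libraries, against 153, 102 and 168 in WT vehicle libraries. Under GW4064 the quotient was 14.4, 10.2 and 7.59 in FXR KO, against 63.1, 52.1 and 88.2 in WT. No FXR KO library came near a WT library in this quotient.

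**Figure D2:**
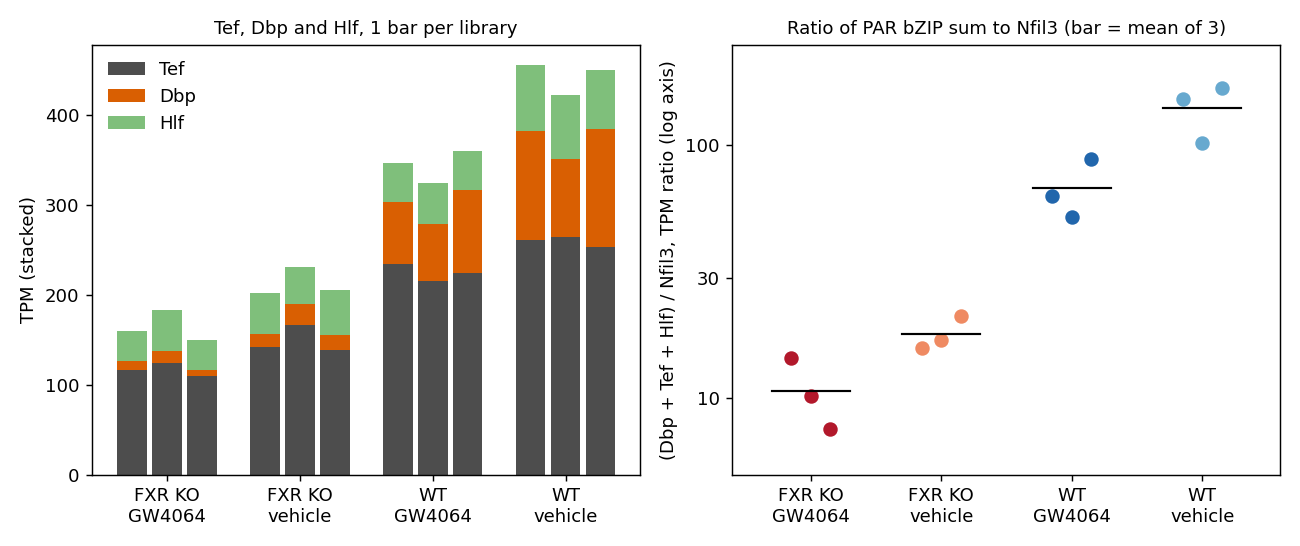
Left, stacked TPM of Tef, Dbp and Hlf in each library (linear axis from 0). Right, the sum of the 3 divided by the TPM of Nfil3 in each library (log axis, bar at the mean of 3): FXR KO libraries lie between 7.59 and 21.1 and WT libraries between 52.1 and 168.

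Levels of different genes depend on the length by which TPM was divided. The deposited coverage of a gene, divided by its FPKM and by the library's typical value of that quotient, was 1 for 82.5% of genes within 0.05. It was 0.541 to 0.549 for Tef and 0.113 to 0.138 for Rora, so these 2 genes stand higher against other genes in TPM than in coverage. With coverage in place of TPM, the share of Dbp in the sum was 12.5% in FXR KO vehicle and 34.7% in WT vehicle libraries, and the quotient with Nfil3 was 12.2 and 104. The calls of Dbp, Tef, Hlf, Nfil3 and Ciart between genotypes were the same with coverage.

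Ciart (Entrez 229599, chr3:95878505-95882228, minus strand) encodes CHRONO, a repressor that acts on ARNTL-driven transcription. It was at 1.07, 1.61 and 1.47 TPM in FXR KO vehicle libraries, against 9.39, 11.4 and 12.6 TPM in WT vehicle libraries. The groups were widely separated: the log2 change was -2.63 ± 0.31 (limma, adjusted p = 5.2e-04), the 7th lowest of 14488, and the level was 8.07-fold lower in FXR KO. Under GW4064 it was at 1.17, 1.83 and 0.50 TPM in FXR KO, against 3.63, 3.73 and 7.48 TPM in WT, without overlap. That log2 change was -1.72 ± 0.31 (limma, adjusted p = 0.0028). The whole of Ciart (3724 bases) lies within C920021L13Rik on the opposite strand, and whether the authors' counting used strand is not given in the sources used here. C920021L13Rik was at 0.572 to 0.971 TPM in FXR KO vehicle and 1.21 to 2.07 TPM in WT vehicle libraries (log2 change -0.66; limma, adjusted p = 0.0851). Dbp shares 741 bases with Sphk2 on the opposite strand, and Sphk2 was at 20.5 to 23.5 TPM in FXR KO vehicle and 19.8 to 23.8 TPM in WT vehicle libraries.

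Bhlhe40 and Bhlhe41 encode DEC1 and DEC2, E-box repressors. Bhlhe40 (Entrez 20893, chr6:108660629-108666925, plus strand) was at 60.5, 92.2 and 63.9 TPM in FXR KO vehicle libraries, against 59.9, 63.0 and 66.2 TPM in WT vehicle libraries. These groups overlapped, and the log2 change of 0.17 had a 95% interval of -0.27 to 0.61 (limma, adjusted p = 0.604). Under GW4064 Bhlhe40 was at 64.9, 107 and 60.4 TPM in FXR KO and at 79.4, 69.5 and 61.7 TPM in WT, with a log2 change of 0.10 (-0.34 to 0.54; limma, adjusted p = 0.785). Replicate 2 was the highest Bhlhe40 library in both knockout groups.

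Bhlhe41 (Entrez 79362, chr6:145858243-145865420, minus strand) was close to the filter of 1 TPM in every group. It was at 0.713, 0.675 and 0.952 TPM in FXR KO vehicle libraries, against 1.32, 1.09 and 2.03 TPM in WT vehicle libraries. The groups did not overlap, but the log2 change of -0.61 (95% interval -1.08 to -0.13) did not pass (limma, adjusted p = 0.0885). It passed without the variance trend (adjusted p = 0.0458). Under GW4064 Bhlhe41 was at 0.958, 1.35 and 1.02 TPM in FXR KO and at 1.04, 0.89 and 0.781 TPM in WT, with overlap and a log2 change of 0.19 (-0.28 to 0.67; limma, adjusted p = 0.593).

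Noct (Entrez 12457, chr3:51224447-51251654, plus strand) encodes nocturnin, an enzyme first described as a deadenylase and since shown to cleave phosphate from NADP(H). Between genotypes its libraries overlapped, with 32.3, 38.5 and 51.7 TPM in FXR KO vehicle and 42.6, 81.3 and 42.9 TPM in WT vehicle. The log2 change was -0.40 (95% interval -1.07 to 0.28; limma, adjusted p = 0.407). Under GW4064 Noct was at 22.7, 36.1 and 18.9 TPM in FXR KO and at 12.5, 16.0 and 22.9 TPM in WT, a log2 change of 0.57 (-0.10 to 1.25; limma, adjusted p = 0.231).

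Rora (Entrez 19883, chr9:68653786-69388246, plus strand), the gene of the nuclear receptor RORA, had the narrowest values of the 9. It was at 58.2, 61.3 and 64.7 TPM in FXR KO vehicle libraries, against 55.5, 59.4 and 59.0 TPM in WT vehicle libraries, with overlap. The log2 change was 0.08 (95% interval -0.02 to 0.19; limma, adjusted p = 0.258). With coverage in place of TPM it was 0.25 ± 0.07 (limma, adjusted p = 0.0447), and with median-of-ratios scaling 0.17 (adjusted p = 0.0493), so the call for Rora on vehicle depended on these choices. Under GW4064 Rora was at 64.5, 64.3 and 63.5 TPM in FXR KO and 61.8, 59.6 and 58.4 TPM in WT, without overlap and with a log2 change of 0.10 (-0.01 to 0.20; limma, adjusted p = 0.188). It passed there with quantile normalization (0.16, adjusted p = 0.0315).

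The spread between libraries of a group differed widely among the 9 genes. On the log2(TPM + 0.5) scale the pooled within-group SD was 0.0512 for Rora and 0.0885 for Tef, below the median of 0.116 over all genes. It was 0.448 for Noct, 0.436 for Ciart, 0.379 for Dbp and 0.319 for Nfil3, and 94.0%, 93.8%, 91.8% and 88.6% of genes had a smaller one. Bhlhe40 (0.293), Bhlhe41 (0.222) and Hlf (0.15) lay between them. The same log2 change is therefore measured less precisely for Noct or Ciart than for Tef.

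**Figure D3:**
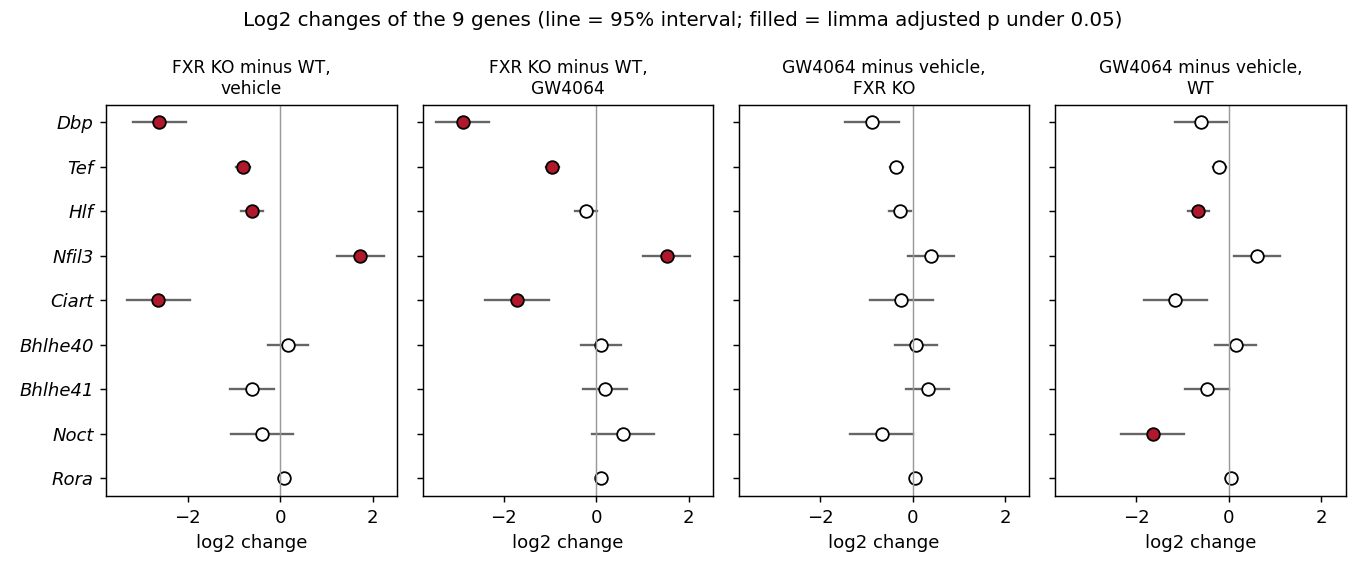
Log2 change of the 9 genes (x axis; points are estimates, lines 95% intervals, filled points have a limma adjusted p under 0.05) for FXR KO minus WT on vehicle and under GW4064, and for GW4064 minus vehicle in FXR KO and in WT. The genotype panels hold 5 and 4 filled points, the panel for GW4064 in FXR KO none, and that in WT 2, for Hlf and Noct.

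Hlf and Noct were lower in WT GW4064 than in WT vehicle kidneys. These were 2 of the 9 genes, against 4.8% of all 14488 genes called in that comparison (2.48% higher and 2.32% lower), and the groups did not overlap for 5 of the 9, against 26.8% of all genes. Hlf was at 43.1, 46.3 and 42.8 TPM in WT GW4064 libraries, against 72.9, 70.8 and 65.6 TPM in WT vehicle libraries. The groups were clearly separate, and the log2 change was -0.66 ± 0.11 (limma, adjusted p = 0.00459), 1.58-fold lower. Noct was at 12.5, 16.0 and 22.9 TPM in WT GW4064, against 42.6, 81.3 and 42.9 TPM in WT vehicle. It was 3.24-fold lower with GW4064 and the 26th lowest of 14488 by log2 change. Without WT GW4064 replicate 1 the log2 change of Noct was -1.45 (limma, adjusted p = 0.0534), so its call did not hold without that library. In the same fit 337 genes were called in all, against 696 with all libraries. The change was smallest, -1.34, without WT vehicle replicate 2, the highest Noct library, and the call held there. A score of fat markers was lower in WT GW4064 replicates 1 and 3 (-0.263 and 0.515) than in any WT vehicle library (1.99 to 2.30). In WT GW4064 replicate 2 the score was 2.70, above every WT vehicle library. With that score in the model the log2 changes were -0.64 for Hlf and -1.69 for Noct (limma, adjusted p = 0.0207 and 0.0296).

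The other 7 genes did not pass in WT kidneys. Ciart was at 3.63, 3.73 and 7.48 TPM in WT GW4064, against 9.39, 11.4 and 12.6 TPM in WT vehicle, with no overlap and a log2 change of -1.16 ± 0.31 (limma, adjusted p = 0.0615). It passed with a pseudocount of 1 (adjusted p = 0.037), with FPKM (0.0334), with sample weights (0.0424) and without WT GW4064 replicate 3, its highest library (-1.47, adjusted p = 0.0229). Tef had a log2 change of -0.21 (95% interval -0.35 to -0.06; limma, adjusted p = 0.11). It passed when a score of fat markers entered the model (-0.29, adjusted p = 0.0116). It also passed with only the compared groups in the fit (limma, adjusted p = 0.0275) and without FXR KO vehicle replicate 2 (0.0385). Dbp, at -0.60 (-1.17 to -0.03), Nfil3, at 0.61 (0.12 to 1.11), and Bhlhe41, at -0.47 (-0.95 to 0.01), had limma adjusted p-values of 0.235, 0.162 and 0.266. Bhlhe40 and Rora had log2 changes of 0.15 (-0.29 to 0.59) and 0.05 (-0.05 to 0.15).

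In FXR KO kidneys none of the 9 genes passed for GW4064 in limma, where 0.0138% of all genes (2 of 14488) passed, while 3 of the 9 and 1560 of all genes had an unadjusted p under 0.05. The 3 were Dbp, Tef and Hlf. Dbp was at 10.004, 13.3 and 6.38 TPM in FXR KO GW4064 libraries, against 14.5, 23.8 and 16.4 TPM in FXR KO vehicle libraries, with no overlap and a log2 change of -0.87 (95% interval -1.45 to -0.30; limma, adjusted p = 0.27). Tef, also without overlap, had a log2 change of -0.35 (-0.49 to -0.20; limma, adjusted p = 0.13), and passed without FXR KO GW4064 replicate 2 (adjusted p = 0.0488). Hlf overlapped and had -0.28 (-0.51 to -0.04; limma, adjusted p = 0.386). Bhlhe41 was the third gene without overlap, at 0.33 (-0.15 to 0.80; limma, adjusted p = 0.63), against 13.9% of all genes without overlap in that comparison. Noct had -0.67 (-1.35 to 0.00), Nfil3 0.39 (-0.10 to 0.89), Ciart -0.25 (-0.93 to 0.44), Bhlhe40 0.08 (-0.37 to 0.52) and Rora 0.06 (-0.04 to 0.17), each as a log2 change with its 95% interval.

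Whether GW4064 acted differently in the genotypes was tested as the change in FXR KO minus the change in WT. None of the 9 genes passed in limma, against 3.19% of all genes. An unadjusted p under 0.05 was found for 3 of the 9 (Hlf, Bhlhe41 and Noct), against 2756 of all 14488 genes. The difference was 0.38 for Hlf (95% interval 0.05 to 0.71; adjusted p = 0.207), 0.80 for Bhlhe41 (0.12 to 1.47; adjusted p = 0.191) and 0.97 for Noct (0.02 to 1.92; adjusted p = 0.253), on the log2 scale. For Ciart it was 0.91 (-0.06 to 1.88), for Dbp -0.28 (-1.09 to 0.53), for Nfil3 -0.22 (-0.92 to 0.48) and for Tef -0.14 (-0.35 to 0.06). The intervals of Ciart and Dbp hold differences of more than 1 in size as well as none. The calls of Hlf and Noct in WT and not in FXR KO are thus not a tested difference between genotypes.

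The core clock genes were read from the same fits. Of 15 listed genes 14 were tested, and on vehicle 3 were higher and 3 lower in FXR KO, against 12.9% of all genes called. The list median was -0.16, against -0.09 over all genes. Arntl, the gene of the activator BMAL1, was at 18.2, 11.6 and 15.1 TPM in FXR KO vehicle libraries, against 1.89, 3.36 and 2.26 TPM in WT vehicle libraries. There was no overlap, and the log2 change was 2.37 ± 0.26 (limma, adjusted p = 2.9e-04). Nr1d1, which encodes REV-ERB alpha, a repressor of Arntl, was at 1.70, 4.12 and 2.03 TPM in FXR KO vehicle, against 18.7, 18.7 and 29.6 TPM in WT vehicle. Its log2 change was -2.92 ± 0.33 (limma, adjusted p = 3.9e-04). Npas2, the partner of ARNTL in place of CLOCK, was higher by 1.73 ± 0.25 (limma, adjusted p = 0.00181). It was at 2.78, 1.84 and 2.63 TPM in FXR KO vehicle, against 0.337, 0.496 and 0.297 TPM in WT vehicle. Npas2 was below 1 TPM in every WT library of both treatments, so it passed the filter through FXR KO libraries only. Cry1, which encodes a repressor, was higher by 0.82 ± 0.13 (limma, adjusted p = 0.00294). Per3 was lower by 1.18 ± 0.14 (adjusted p = 4.9e-04) and Nr1d2 by 0.90 ± 0.11 (adjusted p = 7.0e-04). All 6 calls held with each library left out and in every alternative that gave a value. Npas2 gave none under a minimum mean of 5 TPM. Per1 (-0.24), Per2 (-0.15), Cry2 (-0.25) and Clock (0.16) did not pass on vehicle.

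Under GW4064, 5 core clock genes were higher and 5 lower in FXR KO, against 18.5% of all genes called. The list median was -0.16, against -0.03 over all genes. Arntl was at 18.0, 20.6 and 32.3 TPM in FXR KO GW4064 libraries, against 3.11, 4.71 and 2.86 TPM in WT GW4064 libraries, without overlap. The log2 changes were 2.55 ± 0.26 for Arntl, 2.52 ± 0.25 for Npas2 and 0.37 ± 0.06 for Clock, with limma adjusted p-values of 4.6e-05, 4.4e-05 and 0.00151. Npas2 was at 4.32, 4.73 and 7.43 TPM in FXR KO GW4064, against 0.574, 0.78 and 0.266 TPM in WT GW4064. Nr1d2 (-1.35 ± 0.11), Per3 (-1.66 ± 0.14) and Per2 (-0.96 ± 0.19) were lower, with limma adjusted p-values of 1.1e-05, 1.2e-05 and 0.0053. Nr1d1 was at 4.26, 2.10 and 5.09 TPM in FXR KO GW4064, against 7.94, 8.59 and 12.1 TPM in WT GW4064. Its log2 change of -1.27 ± 0.33 passed (limma, adjusted p = 0.0201), but not without FXR KO GW4064 replicate 2 or without WT GW4064 replicate 3. Of the 10 calls, 7 held with each library left out in turn.

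**Figure D4:**
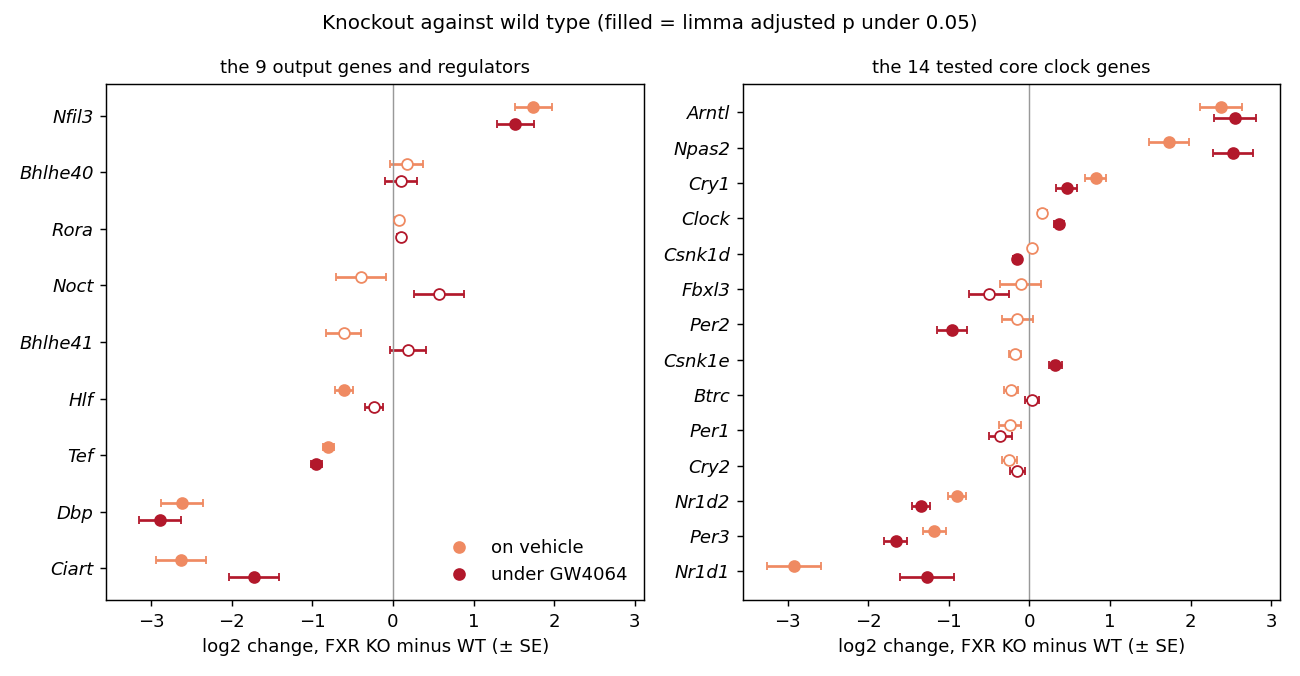
Log2 change, FXR KO minus WT, of the 9 genes (left) and the 14 tested core clock genes (right), on vehicle and under GW4064; points are estimates, bars SE, filled points have a limma adjusted p under 0.05. Arntl (2.37 on vehicle) and Nfil3 (1.74) lie highest on vehicle in their panels, and Nr1d1 (-2.92), Ciart (-2.63) and Dbp (-2.62) lowest.

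Between WT GW4064 and WT vehicle kidneys 1 of these core clock genes rose with GW4064, Csnk1d, a casein kinase gene, by 0.21 ± 0.04 on the log2 scale (limma, adjusted p = 0.00705). None was called lower. In either direction, 4 of 14 had an unadjusted p under 0.05, against 2793 of all 14488 genes. Of all genes, 4.8% were called in that comparison. Nr1d1 was at 7.94, 8.59 and 12.1 TPM in WT GW4064, against 18.7, 18.7 and 29.6 TPM in WT vehicle libraries, without overlap, and its log2 change of -1.17 ± 0.33 did not pass (limma, adjusted p = 0.0717). The count of core clock genes called lower was 2 with sample weights or without FXR KO vehicle replicate 2, and 1 with only the compared groups in the fit or without FXR KO GW4064 replicate 2. In FXR KO kidneys limma called none of the 14, and 8 had an unadjusted p under 0.05, against 1560 of all 14488 genes. A difference between genotypes in the change with GW4064 was called for Csnk1e, another casein kinase gene (0.49 ± 0.12; limma, adjusted p = 0.0433). That call was lost in 11 of the 12 fits with 1 library left out.

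Genes known to follow the clock, or to respond to glucocorticoids, to fasting or as immediate early genes, were counted from 4 further lists. These lists overlap, with 6 genes on more than 1. Of all genes, limma called 12.9% between genotypes on vehicle, 18.5% between genotypes under GW4064 and 4.8% for GW4064 in WT. Of 16 clock-controlled output genes, 3 were higher and 3 lower in FXR KO on vehicle, with a median log2 change of -0.06. Of these, Cdkn1a, a cell cycle inhibitor gene, changed by 1.58 ± 0.15 (limma, adjusted p = 9.3e-05). Sgk1, the gene of a kinase that regulates sodium transport, changed by 1.61 ± 0.19 (limma, adjusted p = 4.4e-04). Both calls held in every alternative that gave a value, and Cdkn1a gave none under a minimum mean of 5 TPM. The calls of Lonrf3, Aqp2, Slc9a3 and Nampt were each lost when some single library was left out. Under GW4064, 7 were higher and 2 lower in FXR KO, with Cdkn1a at 2.09 ± 0.15 (limma, adjusted p = 3.8e-06) and Usp2, a ubiquitin protease gene with a strong daily rhythm, at -0.96 ± 0.14 (adjusted p = 5.9e-04); 7 of these 9 calls were lost with some library left out.

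Of 12 glucocorticoid-responsive genes, 3 were higher in FXR KO on vehicle (Cdkn1a, Sgk1 and Errfi1) and 4 under GW4064 (Cdkn1a, Mt2, Mt1 and Errfi1), with none lower and list medians of 0.25 and 0.40. All 3 calls on vehicle and 3 of the 4 under GW4064 held with each library left out. Of 13 fasting and cAMP genes, 6 were higher and 2 lower on vehicle, and 8 higher and 3 lower under GW4064, with medians of 0.19 and 0.67, against 12.9% and 18.5% of all genes called and medians of -0.09 and -0.03. With some library left out, 5 of the 8 calls on vehicle and 5 of the 11 under GW4064 were lost. Pdk4, a kinase gene that limits glucose oxidation, was higher by 2.73 ± 0.24 on vehicle (limma, adjusted p = 7.3e-05) and by 2.41 ± 0.24 under GW4064 (adjusted p = 4.8e-05), and Sik1, a salt-inducible kinase gene, was lower at -0.62 ± 0.09 (adjusted p = 0.00168) and -0.59 ± 0.09 (adjusted p = 8.7e-04). Of 10 tested immediate early genes, 2 were higher and 1 lower on vehicle, and 4 higher and 1 lower under GW4064, with Fos at 1.07 ± 0.16 under GW4064 (limma, adjusted p = 7.5e-04). None of the 3 calls on vehicle, and 4 of the 5 under GW4064, held with each library left out. For GW4064 in WT, limma called 3 output genes, all lower, of which Ppara (-0.42 ± 0.08; adjusted p = 0.0104) held with each library left out. In the same comparison it called none of the glucocorticoid list, 3 fasting genes and 1 immediate early gene. Of the 12 glucocorticoid genes 3 had an unadjusted p under 0.05 there, against 2793 of all 14488 genes. For GW4064 in FXR KO it called none of the 4 lists, with 8, 5, 1 and 1 genes at an unadjusted p under 0.05 in the order given here. Of all 14488 genes, 1560 had such a p in that comparison. No list was tested as a set.

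The genes whose pattern was closest to each of the called genes were found among 10945 genes by the root mean square difference of centred log2(TPM + 0.5) over the 12 libraries. For Ciart they were Mfsd2a (0.471), Nr1d1 (0.586) and Col3a1 (0.643), against a root mean square of 1.22 for Ciart about its own mean. For Dbp they were Ces1g (0.685), Mfsd2a (0.725) and Per3 (0.75), against 1.46. Mfsd2a thus stood near both, at 4.19 and 5.29 TPM in FXR KO GW4064 and FXR KO vehicle libraries, against 14.5 and 27.1 TPM in WT GW4064 and WT vehicle libraries.

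For Nfil3 the nearest were Ypel2 (0.29), Tmem252 (0.368) and Ehhadh (0.373), against 0.893. Ehhadh, a gene of peroxisomal fatty acid oxidation, averaged 2083 TPM in FXR KO vehicle and 903 TPM in WT vehicle libraries. For Tef they were Map2k6 (0.149), Prr15 (0.164) and Gria3 (0.169), against 0.466, and for Hlf Pter (0.134), Osbpl6 (0.152) and Tnfaip8 (0.153), against 0.35. For Noct they were Slc16a14 (0.371), Prob1 (0.417) and Tsku (0.432), against 0.728. Slc16a14 averaged 32.1 TPM in WT GW4064 and 97.6 TPM in WT vehicle libraries, the pair of groups between which Noct was called.

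Some facts of the libraries stand beside these results. The targeted gene Nr1h4 was at 113 to 120 TPM in FXR KO vehicle and 217 to 267 TPM in WT vehicle libraries, so gene-level RNA was lower but present under the knockout label, and these values do not show whether it includes the disrupted stretch. Slc51a, a target gene of FXR, was at 427 to 514 TPM in WT GW4064 and 36.4 to 48.1 TPM in WT vehicle libraries, against 28.6 to 33.2 TPM in FXR KO GW4064 and 34.3 to 46.5 TPM in FXR KO vehicle libraries. Kidney markers were present in all libraries (Slc34a1 at 2217 to 3087 TPM, Umod at 3187 to 3766 TPM), while the adrenal genes Cyp11b1 and Cyp11b2 were listed at 0. Depth was 3.46 to 4.27 mapped gigabases in FXR KO vehicle libraries against 2.86 to 3.34 in WT vehicle libraries, and 3.005 to 3.33 against 3.01 to 3.85 under GW4064. The part of depth in the results was not tested.

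Some markers of other cell types differed between genotypes, where limma called 12.9% of all genes on vehicle and 18.5% under GW4064. The summed level of 6 immune markers was 297 to 451 TPM in FXR KO vehicle and 221 to 230 TPM in WT vehicle libraries, and 268 to 327 TPM in FXR KO GW4064 and 221 to 242 TPM in WT GW4064 libraries. Of 5 tested, limma called 3 higher on vehicle, and 2 higher and 1 lower under GW4064. Cd74, an antigen presentation gene, made up much of that sum (115 to 328 TPM), and the T cell gene Cd3e was at 0 to 1.18 TPM. The sum of 5 podocyte markers was 137 to 154 TPM in FXR KO vehicle and 182 to 191 TPM in WT vehicle libraries, with 4 of 5 called lower, and 146 to 156 TPM against 164 to 170 TPM under GW4064, with 2 of 5 called lower. On vehicle, the sums of other lists also stood apart without overlap. The groups did not overlap for 34.7% of single genes there, and no such share was computed for sums of lists. They were 441 to 461 TPM in FXR KO and 520.0 to 585 TPM in WT libraries for 6 collecting duct principal cell markers (2 called lower), and 286 to 322 TPM in FXR KO and 339 to 372 TPM in WT libraries for 5 endothelial markers (2 called lower). For 5 liver markers they were 942 to 1058 TPM in FXR KO and 629 to 707 TPM in WT libraries (1 called higher). Most of that sum was Cyp2e1 (505 to 1074 TPM over the 12 libraries), while Alb was at 2.41 to 8.34 TPM. For 6 proximal tubule markers the sums were 58073 to 69853 TPM in FXR KO and 53284 to 54073 TPM in WT libraries (none called). Kap (47901 to 63992 TPM over the 12 libraries) made up most of it. Under GW4064 limma called 3 of these 6 proximal tubule markers lower. Sums of the thick ascending limb, distal convoluted tubule and urothelium lists were also lower in FXR KO on vehicle without overlap, with none called. Under GW4064 the sums of the collecting duct, endothelial, liver, proximal tubule, distal convoluted tubule and urothelium lists overlapped between genotypes. That of the thick ascending limb list did not, at 4770 to 5001 TPM in FXR KO and 5252 to 5310 TPM in WT. The part of these cell types in the results for the 9 genes was not tested.

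Fat markers varied between libraries of a group. Adipoq, made by adipocytes, ranged from 0.133 to 4.47 TPM and Cfd from 0.711 to 25.3 TPM over the 12 libraries, while Fabp4, also made by endothelial cells, was at 146 to 260.0 TPM. A score of fat markers (the mean log2 value of 4 adipocyte genes) was -0.263, 2.70 and 0.515 in WT GW4064 libraries, against 2.16, 1.99 and 2.30 in WT vehicle libraries. It was 2.49, 1.07 and 2.44 in FXR KO GW4064 and 1.83, 0.24 and 2.43 in FXR KO vehicle libraries. The median log2 change of the 5 tested fat markers was -1.03 for GW4064 in WT, -0.74 for genotype on vehicle, 0.97 for genotype under GW4064 and 1.5 for the interaction, with none called by limma in these comparisons.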

How the data were processed

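Total RNA of 12 mouse kidney samples was sequenced with a stranded kit, per the labels, and groups were taken from the sample labels. The tools were HISAT2, StringTie and Cufflinks on mm10, per the submitters' processing notes, with versions, roles and use of strand not given in the sources used here. Values deposited by the authors were TPM, FPKM and a coverage signal per gene; FPKM was a constant multiple of TPM within each library, and FPKM and coverage served as alternatives and for depth (2.86 to 4.27 mapped gigabases). No read counts were used, so depth limits precision only through the spread between libraries. Where an identifier had several entries (113 to 142 identifiers per library) these were added up, and RefSeq gave a symbol for 24462 of 24532 identifiers.

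A gene was kept where 3 or more libraries reached 1 TPM, and log2(TPM + 0.5), which understates changes of low genes, was fitted with limma 3.58.1 in R 4.3.3, with 1 mean per group over all 12 libraries and a variance trend. The 5 contrasts were each adjusted by Benjamini-Hochberg over 14488 genes. No exact permutation test was run, since 3 libraries against 3 allow no two-sided p below 0.1. The fit was tested on simulated data. Python 3.11.15 served for tables and motif searches (pandas 2.3.3, numpy 2.4.6) and for plots (matplotlib 3.10.9).

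The 9 genes and all gene and marker lists were chosen with earlier results of these data known. All 9 are named; of each other list, called genes were named by a rule (up to 3 of lowest p per direction, or all where 5 or fewer were called), and not all that it gives are reported. Nr1d1 under GW4064 was named after its values were seen, and 1 gene is not reported here. The nearest genes were the 3 with a mean of at least 5 TPM and the smallest distance. Alternatives were pseudocounts, filters, scalings, FPKM, variance models, sample weights, the groups in the fit, a block, the largest entry per identifier, a fat marker covariate (Adipoq, Cfd, Cidec and Plin1 averaged in log2) and leaving out each library; protein-coding genes only and coverage in place of TPM were added after seeing the data.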

Additional observations from a re-analysis of the deposited data

How the results depend on the processing

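Of 11 calls among the 9 genes, 10 held in the 15 other settings and with each of 12 libraries left out, except that Ciart gave no value under a minimum mean of 5 TPM; that of Noct in WT was lost without WT GW4064 replicate 1 (-1.45). Changes that were not called turned sign in some settings. With the fat marker covariate, Bhlhe40 was at -0.0592 for GW4064 in WT and 0.22 for the interaction, and Dbp at 0.0459 for the interaction. The Rora interaction was -0.035 with median-of-ratios scaling, -0.00808 with FPKM and -0.0708 with coverage. With 1 library left out, Bhlhe40 ranged from -0.18 to 0.26 (GW4064 in FXR KO), -0.0179 to 0.28 (genotype, vehicle), -0.16 to 0.25 (genotype, GW4064) and -0.33 to 0.12 (interaction), Ciart from -0.53 to 0.0801 (GW4064 in FXR KO), and the interaction from -0.38 to 0.0257 for Nfil3 and -0.0241 to 0.0514 for Rora. The cause was not tested.

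For GW4064 in WT, 428 genes were called with the fat covariate and 337 to 768 with 1 library left out, against 696. Of the 9 genes, 4 were called with only the groups compared in the fit and 1 to 3 with 1 library left out, against 2. For GW4064 in FXR KO, 1 gene was called with a pseudocount of 0.1, median-of-ratios scaling, quantile normalization, FPKM, sample weights or coverage, 0 without the variance trend or with only the groups compared, and 0 to 51 (0 to 1 of the 9) with 1 library left out, against 2. Genotype calls numbered 913 to 1899 on vehicle (1872 with all libraries) and 1732 to 2759 under GW4064 (2677), and interaction calls 220 to 535 and 207 with the fat covariate (462). The libraries without which a count moved by over 1.5 times were WT GW4064 replicates 1 (337) and 2 (413) and WT vehicle replicates 1 (449) and 3 (390) for GW4064 in WT. On vehicle they were FXR KO replicates 1 (1155) and 2 (1117) and WT replicates 1 (961) and 3 (913), and under GW4064 WT replicate 1 (1732). For the interaction they were FXR KO GW4064 replicate 3 (272), FXR KO vehicle replicate 1 (224), WT GW4064 replicates 1 (220) and 2 (298) and WT vehicle replicates 1 (283) and 3 (257). For GW4064 in FXR KO the counts above 2 came without FXR KO GW4064 replicate 2 (51, with Tef) or FXR KO vehicle replicate 2 (31).

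Scaling moved the balance of calls. On vehicle 462 genes were higher and 1410 lower in FXR KO, against 832 and 567 with median-of-ratios scaling and 674 and 591 with quantile normalization. Under GW4064 these were 1026 and 1651, against 1248 and 1308, and 1306 and 1321. For GW4064 in WT they were 360 and 336, against 451 and 237, and 411 and 271, and for the interaction 213 and 249, against 139 and 338, and 161 and 276.

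Over all genes, deviations from group means showed no pairing by replicate number. The 18 same-numbered pairs correlated at -0.0748 to 0.0829, and 3 of 12 libraries correlated best with one of their own number. A link between same-numbered libraries in only some genes could not be seen this way. With the replicate number as a block, 0 genes were called for GW4064 in FXR KO.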

Other observations

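Rora gave different answers in TPM and in coverage. Per library, coverage scaled to the TPM of the typical gene was 7.71, 8.02 and 8.46 in FXR KO vehicle libraries and 6.28, 7.01 and 6.79 in WT vehicle libraries, without overlap, whereas its TPM overlapped. Of all 14488 genes, 5.0% had a coverage to FPKM quotient under 0.5 of the typical gene's.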
